A study of Mus musculus with 20 samples.

Results

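The genes described are 9 genes of heme synthesis in the mouse, Alas1, Alas2, Alad, Uros, Urod, Cpox, Ppox, Fech and Slc25a38, of the 38561 genes counted in each cell. They were taken by name as enzymes of the pathway, with the mitochondrial glycine carrier Slc25a38, and all 9 had reads. The enzyme of the step between Alad and Uros was not analysed here. The cells were 20 single haematopoietic stem and progenitor cells from the bone marrow of C57BL/6J mice, read by Quartz-Seq, which turns the polyadenylated RNA of each sorted cell into cDNA and multiplies it by PCR. They fell into 9 cells sorted as Lin-cKit+CD150+CD48- (CD150+CD48- cells, a gate that is rich in stem cells) and 11 sorted as Lin-cKit+CD150- (CD150- cells, for which the labels name no CD48 gate, so that they span many kinds of progenitor). No treatment, allele or age was named for either group, and all cells were lineage-negative and cKit-positive.

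Heme is an iron-holding porphyrin ring. Its synthesis starts in the mitochondrion, where Alas1 or the erythroid isozyme Alas2 joins glycine to succinyl-CoA, and goes on in the cytosol through Alad, Uros and Urod. The pathway then returns to the mitochondrion, where Cpox oxidises side chains of the ring, Ppox oxidises the ring and Fech inserts the iron. Every cell needs some heme for cytochromes and catalase, and red cell precursors make it in bulk for haemoglobin. Alas1 is repressed by heme in most tissues, while Alas2 is switched on by the factor Gata1 and held back at translation when iron is short.

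All 9 genes had a lower summed level in the CD150+CD48- cells than in the CD150- cells, and 5 of the 9 were lower by 2-fold or more. These were Cpox, Alad, Alas2, Urod and Slc25a38. None was higher by 2-fold or more, and Alas1, Uros, Ppox and Fech lay within 2-fold. For comparison, 27.4% of the 11341 genes with enough reads were lower by 2-fold or more and 21.9% were higher. The median log2 fold (CD150+CD48- relative to CD150-, 1 CPM added to both levels) was -1.58 over the 9 genes and -0.10 over all 11341. The share of all genes with a lower level of any size was not counted. Of the 9 genes, Ppox changed sign without D3 (0.01) and Fech without C9 (0.21). Scaled to the spike-in reads, all 9 genes and 48.1% of all genes were lower by 2-fold or more. Without A10 and A11, the cells with over 50% of reads unaligned, 7 of the 9 were lower and none higher, with a median of -2.54 (this setting was chosen after seeing the data).

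The labels name neither animals nor cultures. Cells of 1 sort cannot stand in for replicates, so each sort was treated as 1 sample and the sorts were not tested against each other. Levels are in CPM, reads scaled to the total of gene reads (1 read of 660007 is 1.52 CPM), after each cell was thinned to 660007 gene reads, the lowest total. Intervals are 95% and exact (Poisson for levels, conditional binomial for folds, Clopper-Pearson for shares). They cover counting error only, and reads without molecular identifiers are PCR copies, not molecules. Cells are named by the codes in their titles. Letters A and B occur only among CD150+CD48- cells and C and D only among CD150- cells. The sources used here do not say what the letters mark, and letter and sort cannot be told apart.

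The CD150+CD48- cells had 660007 to 3722713 gene reads each, the CD150- cells 996440 to 5776125. Kit was read in all 20 cells, and Slamf1, the gene of CD150, in 3 of 9 CD150+CD48- cells and 0 of 11 CD150- cells. Cd48 was read in 1 CD150+CD48- cell and in no CD150- cell. After thinning, a CD150+CD48- cell had reads in a median of 5374 genes and a CD150- cell in 8350. Unaligned reads made a median of 29.8% and 8.55% of their files. The part of these differences in the levels below was not tested.

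The 11 CD150- cells did not form a uniform set. In 7 of them (C6, C9, C10, C12, D4, D5 and D8), 23 erythroid markers, with no heme synthesis gene among them, took 1.02% to 2.42% of gene reads. In D3, D9, D11 and D12 the share was 0.0279% to 0.221%, and the CD150+CD48- cells had 0.0217% to 0.306%. Markers of stem cells moved the other way: 22 HSC genes took 0.0208% to 0.0573% of gene reads in the 7 marker-rich cells, 0.658% to 1.12% in D3, D9, D11 and D12, and 0.310% to 1.54% in the CD150+CD48- cells. D3, D9, D11 and D12 all carry the letter D. The labels do not name this division, which was made from the markers after values were seen, so the cells are named and given by their ranges. Of the 23 markers, 11 had no thinned read in the CD150+CD48- cells and 2 had none in the CD150- cells. Icam4 was at 0 in both groups. The share of all genes without a read in a group was not counted. Rhag was read in 7 CD150- cells and in no CD150+CD48- cell. Slc4a1 went the other way, with 1 read in the CD150+CD48- cells and 0 in the CD150- cells. These 3 genes were named after their values were seen.

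Together the 9 heme synthesis genes took 0.146% (C6) to 0.398% (C9) of gene reads in the 7 marker-rich cells. In D3, D11, D9 and D12 they took 0.0835%, 0.0542%, 0.0127% and 0.00576%. Among CD150+CD48- cells the share ran from 0.00455% in B4 through a median of 0.0462% to 0.169% in A11, so that A11 reached the lower end of the marker-rich cells while B4 was below all others. A11 had the lowest erythroid marker share of its group, 0.0217%, and B11, with the highest marker share of 0.306%, had a heme synthesis share of 0.0364%. Set against the spike-in RNA that was added to each cell's lysis buffer, the 9 genes had 153 to 903 reads for every 1000 ERCC reads in the 7 marker-rich cells, 2.80 to 13.6 in D3, D9, D11 and D12, and 2.01 to 144 in CD150+CD48- cells. On this scale all genes stood higher in the marker-rich cells, with 109 to 302 gene reads per ERCC read, beside 12.7 to 43.8 in D3, D9, D11 and D12 and 22.3 to 109 in CD150+CD48- cells. Unaligned reads had medians of 3.99%, 17.8% and 29.8% in the same order. The part of these differences was not tested. Of the 9 genes, 7 to 9 were read in each marker-rich cell, 3 or 4 in D3, D9, D11 and D12, and 3 to 8 in the CD150+CD48- cells. Over all genes, 5461 to 8877, 5435 to 8821 and 4758 to 8693 were read per cell in the same order. From CD150- to CD150+CD48- cells, the share of cells with a read fell for genes in general. The mean difference was -20.9 percentage points over the 9 genes and -10.7 over all genes with enough reads. Markers of mitosis moved with the same cells: 25 G2/M genes took 0.371% to 0.858% of gene reads in the 7 marker-rich cells, 3.03e-04% to 0.0248% in D3, D9, D11 and D12, and 0% to 0.149% among the CD150+CD48- cells. The part of cell division or erythroid identity in the level of heme synthesis genes was not tested.

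**Figure D1:**
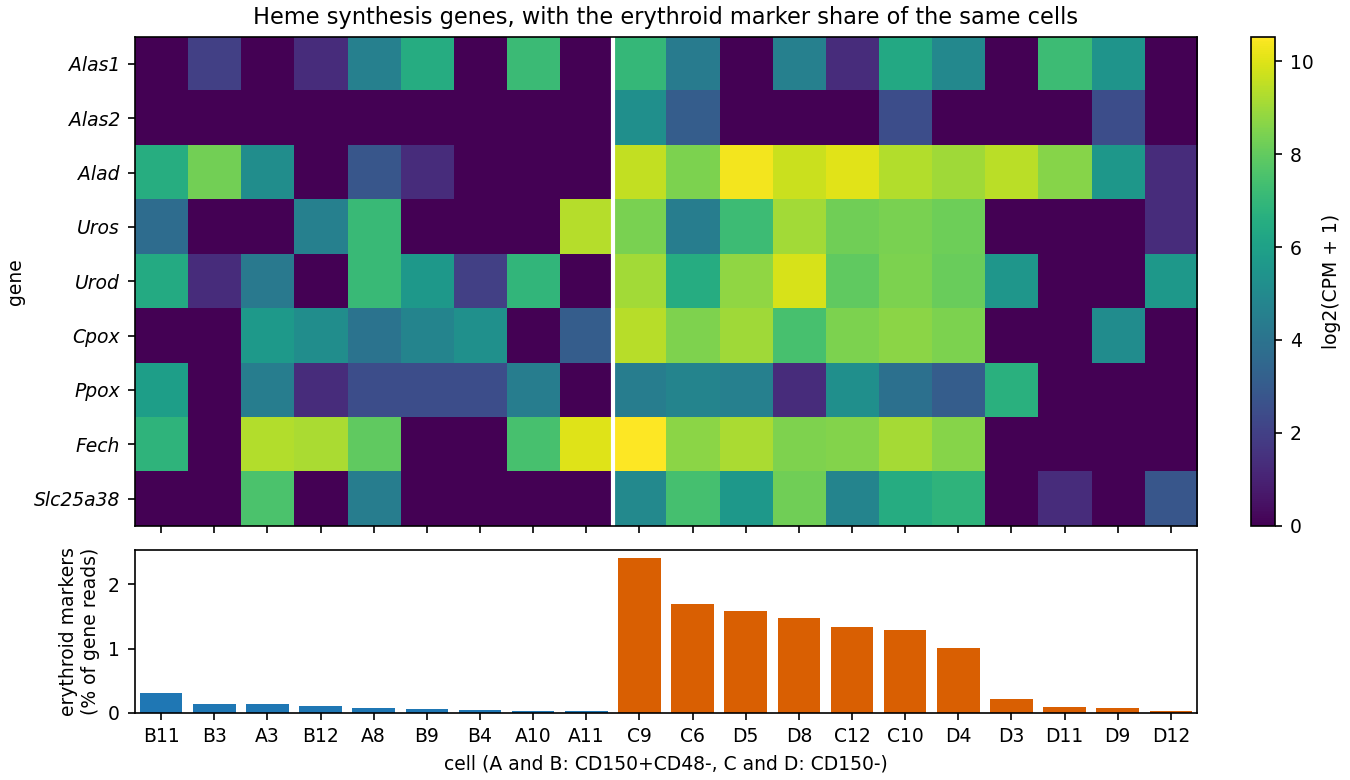
Upper panel: log2(CPM + 1) of the 9 heme synthesis genes (rows, in pathway order, the glycine carrier last) in each of the 20 cells (columns), thinned to equal depth. The white line divides the 9 CD150+CD48- cells from the 11 CD150- cells, and within each group cells are ordered by the share of gene reads in erythroid markers, drawn as bars from 0 in the lower panel. Fech, Cpox, Uros and Slc25a38 are read in all 7 marker-rich CD150- cells, and Fech has no read in D3, D9, D11 and D12.

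Regulatory sequence is shown for the genes whose promoters held a GATA motif, since Gata1 is the erythroid regulator of the pathway and was itself at 18.9 CPM in CD150+CD48- cells and 199.7 CPM in CD150- cells (log2 fold -3.34, or -4.79 without B3). RefSeq promoters on GRCm38.p6 were used for 8 of the 9 genes, with 11 start sites in all. No promoter of Fech is included. The 250 bases before each start were searched on both strands for the GATA motif, spelled AGATAA or AGATAG, or with a leading T as TGATAA or TGATAG, which 26.5% of 32851 such windows of all genes hold. Matches lay before the starts of Alas2 (1 match, bases -86 to -81) and Cpox (2 overlapping matches, -91 to -81). Before the inner of the starts of Uros lay 2 matches, at -205 and -68. The 30 bases around the match at -68 were annotated exon of Uros. The first bases after the Cpox start, the outer start of Uros and the outer start of Alad were not found in annotated transcripts of these genes. Positions before these starts are therefore less certain. The share of the 11 windows with a match was close to that of all windows. Alad, Alas1, Urod, Ppox, Slc25a38 and the outer start of Uros had no match in this window, which says nothing about the factor beyond these letters. The outer start of Uros held the NRF1 motif (GCGC, any pair of bases, then GCGC again), found in 4.98% of windows, as did the inner start of Alas1. Of the 250 bases before the inner start of Alas1, 235 were annotated exon of Alas1. Below, capitals mark the motif (GATA motifs read on the opposite strand appear as TATC), each written 5′ to 3′ along the gene.
Alas2, chrX:150547303-150547362, plus strand: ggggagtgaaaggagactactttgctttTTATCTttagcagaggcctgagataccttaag
Cpox, chr16:58670089-58670148, plus strand: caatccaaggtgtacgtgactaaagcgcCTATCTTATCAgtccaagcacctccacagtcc
Uros inner start, chr7:133702674-133702733, minus strand: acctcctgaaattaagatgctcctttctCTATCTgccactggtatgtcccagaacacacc
Uros outer start, NRF1 motif, chr7:133709309-133709368, minus strand: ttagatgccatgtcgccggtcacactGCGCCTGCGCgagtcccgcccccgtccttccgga
The genes with a match had log2 folds of -3.71 (Cpox), -2.54 (Alas2, -1.42 without C9) and -0.95 (Uros, -3.00 without A11). The searched genes without a match ran from -3.57 (Alad) to -0.54 (Alas1). Alas2 had the lowest level per length in the CD150- cells. A link between motif and level was not tested. A match is a description of the sequence, and binding was not measured.

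Alas1 (chr9:106233455-106248654, minus strand of GRCm38, as all coordinates here) encodes the 5-aminolevulinate synthase found in all tissues, which catalyses the rate-limiting step outside red cells. It was read in 5 of 9 CD150+CD48- cells and 8 of 11 CD150- cells. Values in CD150+CD48- cells ran from 0 through a median of 1.52 CPM to 145 CPM in A10, with B9 at 89.4 CPM. In CD150- cells they ran from 0 through 22.7 CPM to 147 CPM in D11, with C9 at 129 CPM. The ranges overlapped over nearly their whole length, and cells near 0 (D3, D5 and D12 with no thinned read, C12 with 1) included marker-rich ones. Summed levels were 29.1 CPM (24.9 to 33.8) and 42.8 CPM (38.2 to 47.9), a log2 fold of -0.54. It was -1.49 without A10, which held 55.5% of the Alas1 reads of its group.

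Alas2 (chrX:150547375-150570638, plus strand) encodes the erythroid isozyme of the same step. No CD150+CD48- cell had a read, even at full depth, and 0 of 9 cells allows a share of up to 33.6%. Among CD150- cells it was read in C9 at 36.4 CPM, C6 at 7.58 CPM, and C10 and D9 at 4.55 CPM each, with 24, 5, 3 and 3 thinned reads. C12, D4, D5 and D8 had no Alas2 read at full depth, and their erythroid markers took 1.02% to 1.59% of gene reads, beside 1.69% in C6 and 1.28% in C10. The summed level in CD150- cells was 4.82 CPM (3.36 to 6.70). Set against a floor of 3 reads over the CD150+CD48- cells (0.505 CPM), it was 9.55-fold higher, or 6.65-fold from its lower limit. The upper limit for 0 reads in CD150+CD48- cells was 0.621 CPM, above this floor, so the true fold may be smaller than either. C9 alone held 68.6% of the reads, and without it the log2 fold went from -2.54 to -1.42. Alas2 shares 311 exon bases (12.9% of its exon union) with Apex2 on the opposite strand. Alas1 shares 465 bases (7.53%) with 4930500F10Rik and Cpox 204 bases (3.06%) with Gpr15. If strand was not used in counting, reads in such shared bases may have been set aside as ambiguous and left out of both genes. Ambiguous reads were 0.154% (A10) to 0.838% (C10) of a cell's reads.

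Because the isozymes differ in length, their balance was read per kilobase of exon. Alas2 made 22.4% (16.5 to 29.1) of the Alas1 and Alas2 signal summed over the CD150- cells, so Alas1 was the more abundant transcript there. By cell the Alas2 share was 49.7% in C6, 42.0% in C9, 21.6% in D9 and 12.7% in C10. It was 0% in C12, D4, D8 and D11, of which C12 rested on 1 Alas1 read. D3, D5 and D12 had no thinned read of either gene, although the pathway took 0.306% of the gene reads of D5. At its full depth D5 had no read of Alas1 or Alas2.

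Alad (chr4:62509169-62519918, minus strand) encodes aminolevulinate dehydratase, the zinc enzyme that joins a pair of aminolevulinate molecules into porphobilinogen. It was the only one of the 9 genes read in all 11 CD150- cells, from 1.52 CPM in D12 through a median of 629 CPM in C10 to 1294 CPM in D5. The marker-poor cells D3 and D11 had 686 and 394 CPM, within the range of the marker-rich cells, and D9 had 47.0 CPM. Among CD150+CD48- cells it was read in 5 of 9, at 308 CPM in B3, 93.9 CPM in B11, 34.8 CPM in A3, 6.06 CPM in A8 and 1.52 CPM in B9. The groups overlapped only through D9 and D12. Summed levels were 49.3 CPM (43.8 to 55.3) and 595 CPM (578 to 613), a 12.1-fold difference (10.7 to 13.6) and a log2 fold of -3.57. Without B3, which held 69.3% of its group's Alad reads, it was -5.05.

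Uros (chr7:133686243-133710072, minus strand) encodes uroporphyrinogen III synthase, which closes the ring in its asymmetric form. It was read in all 7 marker-rich cells, from 21.2 CPM in C6 to 530 CPM in D8. D3, D9 and D11 had no thinned read and D12 had 1. In CD150+CD48- cells it was read in A11 at 658 CPM, A8 at 138 CPM, B12 at 22.7 CPM and B11 at 12.1 CPM, with 0 in the other 5. A11 thus held the highest value of all 20 cells and 79.2% of its group's reads. Summed levels were 92.3 CPM (84.7 to 100.3) and 179 CPM (170 to 189), a log2 fold of -0.95 that became -3.00 without A11.

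Urod (chr4:116989965-116994413, minus strand) encodes uroporphyrinogen decarboxylase, the last enzyme of the cytosolic part. CD150+CD48- cells had values from 0 through a median of 18.2 CPM to 138 CPM in A8, with A10 at 121 CPM and B11 at 84.8 CPM. CD150- cells ran from 0 through 247 CPM to 936 CPM in D8. Of the 7 marker-rich cells only C6, at 90.9 CPM, was below the highest CD150+CD48- cell, while D3, D9, D11 and D12 had at most 48.5 CPM. Summed levels were 46.1 CPM (40.8 to 51.9) and 270 CPM (258 to 282), a 5.84-fold difference (5.15 to 6.66) and a log2 fold of -2.52. Leaving out any 1 cell kept it between -2.92 and -2.11.

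Cpox (chr16:58670292-58717636, plus strand) encodes coproporphyrinogen oxidase of the mitochondrial intermembrane space. The 7 marker-rich cells held 174 CPM (D8) to 673 CPM (C9), or at least 115 thinned reads each, and all other cells were lower. In CD150+CD48- cells it ran from 0 through a median of 15.2 CPM to its highest in A3, with 33 thinned reads, and was read in 6 of 9. D3, D11 and D12 had no thinned read, and D9 had 33.3 CPM, so these 4 cells lay within the range of the CD150+CD48- cells. Summed levels were 19.0 CPM (15.7 to 22.9) and 261 CPM (249 to 273). The difference was 13.7-fold (11.3 to 16.7), with an interval that overlaps that of Alad, and a log2 fold of -3.71 that stayed between -4.02 and -3.46 when 1 cell was left out.

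Ppox (chr1:171275990-171281186, minus strand) encodes protoporphyrinogen oxidase, which makes the final ring before iron is added. It was read in 7 of 9 CD150+CD48- cells, up to 59.1 CPM in B11, and in 8 of 11 CD150- cells, up to 103 CPM in D3. The medians were 4.55 and 13.6 CPM. The 7 marker-rich cells had only 1.52 CPM (D8) to 36.4 CPM (C12), within the range of the CD150+CD48- cells. For Cpox, by contrast, all 7 lay above every CD150+CD48- cell, and for Urod all but C6 did. Summed levels of 13.0 CPM (10.2 to 16.2) and 21.1 CPM (17.9 to 24.7) gave a log2 fold of -0.66. Without D3 it was 0.01, a change of sign, and without B11 it was -1.43. Ppox shares 791 exon bases (17.5% of its exon union) with B4galt3 on the opposite strand. The use of strand in the counting is not stated. Reads in the shared bases may have been set aside as ambiguous, so the level of Ppox is uncertain.

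Fech, on chromosome 18, encodes ferrochelatase, the iron-sulfur enzyme that puts iron into the ring. In the 7 marker-rich cells it ran from 358 CPM in D8 to 1473 CPM in C9. D3, D9, D11 and D12 had no Fech read even at full depth. Among CD150+CD48- cells it was read in 6 of 9, at 1024 CPM in A11, 641 CPM in A3, 580 CPM in B12, 244 CPM in A8, 174 CPM in A10 and 114 CPM in B11. A11, A3 and B12 thus lay within the range of the marker-rich cells, and B3, B4 and B9 had no thinned read. Summed levels were 309 CPM (295 to 323) and 377 CPM (363 to 392), a log2 fold of -0.29. The sign did not hold: it was 0.21 without C9 and 0.03 with median-of-ratios scaling. Stretches of 100 to 478 bases of Fech transcripts align at 95% identity or more with transcripts of 21 other genes. Reads aligned to several places were not counted to any gene, and how many came from these stretches is unknown.

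Slc25a38 (chr9:120110374-120124504, plus strand) encodes a carrier that brings glycine into the mitochondrion for the first step. In all 7 marker-rich cells it was read, from 25.8 CPM in C12 to 298 CPM in D8. D12 had 6.06 CPM, D11 had 1.52 CPM, and D3 and D9 had 0. Only A3, at 186 CPM, and A8, at 21.2 CPM, had reads among CD150+CD48- cells, 2 of 9. A3 was thus as high as the marker-rich cells, and the other 7 were at 0. Summed levels were 23.1 CPM (19.4 to 27.3) and 71.1 CPM (65.1 to 77.5), a 3.08-fold difference (2.55 to 3.75) and a log2 fold of -1.58, or -4.30 without A3.

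**Figure D2:**
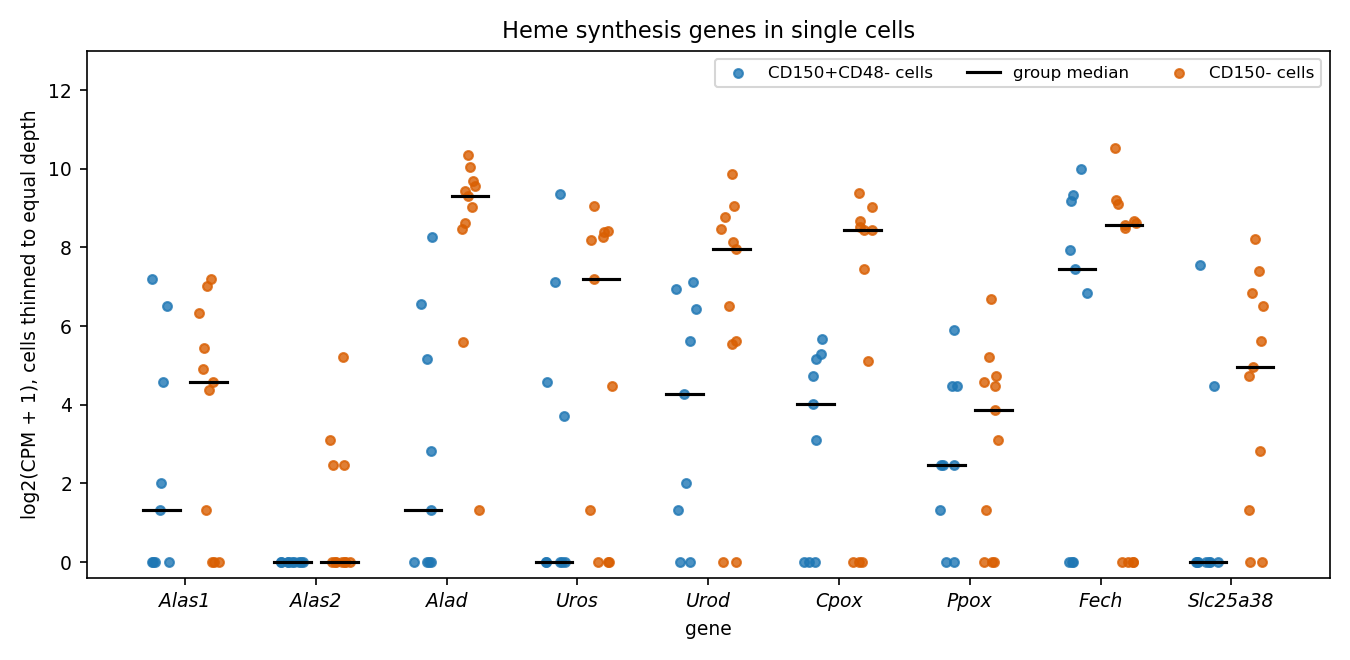
Each point is 1 cell, at log2(CPM + 1) after thinning to equal depth, for the 9 heme synthesis genes. Blue marks the 9 CD150+CD48- cells, orange the 11 CD150- cells, and black bars the group medians. The median of Alad is 1.52 CPM in CD150+CD48- and 629 CPM in CD150- cells, and that of Uros 0 and 147 CPM. Alas1, Ppox and Fech overlap over most of their range, and Alas2 has no point above 0 among the CD150+CD48- cells.

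Some cells carried many reads of 1 or 2 of the genes and few or none of the rest (CPM here is not scaled to gene length). A11 had Uros and Fech at 658 and 1024 CPM with 7.58 CPM of Cpox and no read of the other 6 after thinning. B3 had Alad at 308 CPM, Alas1 at 3.03 CPM and Urod at 1.52 CPM and none of the other 6. A8 had 8 of the 9 genes read, all but Alas2, and an erythroid marker share of 0.0741%. Of the CD150- cells, D3 joined Alad at 686 CPM and Ppox at 103 CPM with no Uros, Cpox or Fech.

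**Figure D3:**
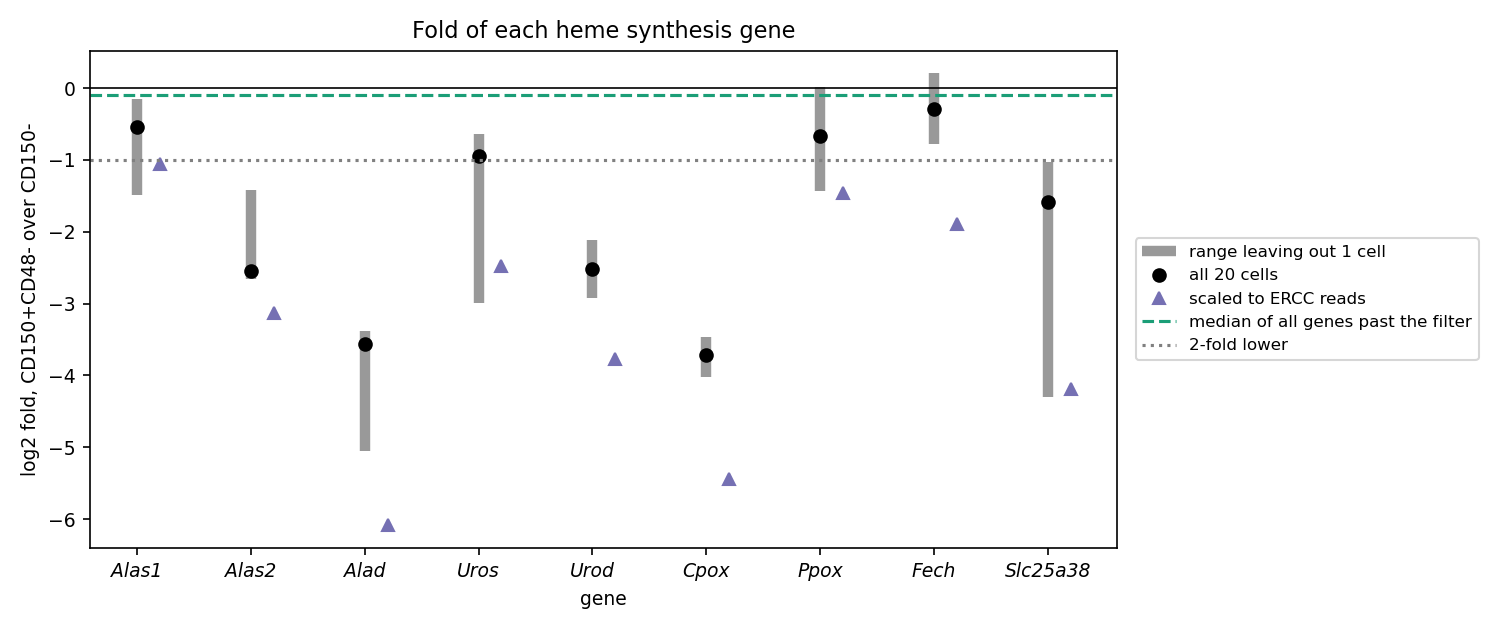
Log2 fold of each heme synthesis gene (vertical axis), CD150+CD48- relative to CD150-, 1 CPM added to both levels. Black points use all 20 cells, grey bars span the values when 1 cell at a time is left out, purple triangles are scaled to ERCC reads, the dashed line is the median of all genes with enough reads (-0.10) and the dotted line marks 2-fold lower. Alas2, Alad, Urod, Cpox and Slc25a38 stay below the dotted line in every setting drawn, and the bars of Ppox and Fech reach above 0 (0.01 and 0.21).

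The genes were ranked within each group as CPM per kilobase of exon. In CD150- cells Alad stood first with 318 CPM per kilobase, followed by Urod with 104, Uros with 50.1, Cpox with 39.2, Fech with 27.3, Slc25a38 with 25.9, Alas1 with 6.94, Ppox with 4.67 and Alas2 with 2.01. The genes of the first step and Ppox were thus the lowest of the pathway there, and Alad the highest. The intervals of Fech and Slc25a38, neighbours in this order, overlapped. In CD150+CD48- cells Alad had 26.4, Uros 25.8, Fech 22.3, Urod 17.8, Slc25a38 8.40, Alas1 4.72, Ppox 2.87, Cpox 2.86 and Alas2 0 CPM per kilobase. The intervals of Alad and Uros overlapped, as did those of Ppox and Cpox, and with the longest transcript as the length Fech stood first and Alad at rank 4. Cpox had rank 4 in the CD150- order and rank 8 in the CD150+CD48- order, or ranks 3 and 7 with the longest transcript.

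**Figure D4:**
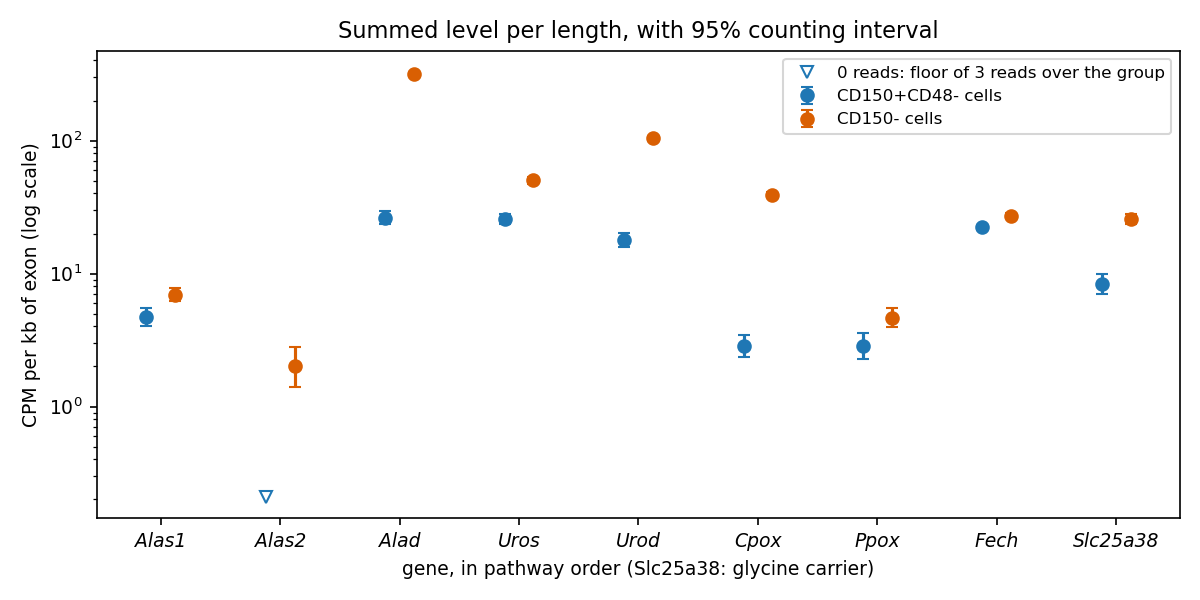
Summed level of each heme synthesis gene in CPM per kilobase of exon (log axis) in pathway order, with 95% Poisson intervals that cover counting error only. Blue is the CD150+CD48- cells, orange the CD150- cells, and the open triangle is the floor of 3 reads over the group for Alas2, where no read was found. Alad is highest in the CD150- cells at 318, and Alas1, Ppox and Fech lie close in both groups.

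Other genes of heme and iron handling were read from lists of known genes. Their counts stand beside the 27.4% of all genes that were lower and the 21.9% that were higher by 2-fold or more, and their medians beside -0.10 for all genes. Ranges in brackets are those with each cell left out in turn, chosen after seeing the data. Several of these levels rest on 1 cell, which is named.

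Of 12 genes of mitochondrial porphyrin and iron transport, 5 (41.7%) were lower and 1 higher, with a median of -0.60 (-1.37 to -0.50). The porphyrin transporter Abcb6 was at 2.19 and 31.5 CPM, a log2 fold of -3.35 (-4.77 without B9 and -2.60 without D5). Abcb10, which stabilises the mitochondrial iron importer Slc25a37, was at 12.6 and 94.4 CPM, or -2.81 (-3.68 without B9, -3.41 without B12). Slc25a37 was at 49.2 and 57.7 CPM, or -0.23 (named after its values were seen). Slc25a28, another iron importer, was the higher gene, at 1.28, and lay within 2-fold without A3 (0.71) or B3 (0.85). Pgrmc1, a heme-binding partner of Fech, had 0.70.

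Among 7 iron uptake genes 3 (42.9%) were lower and 1 higher, with a median of -0.80 (-1.38 to -0.36). The transferrin receptor Tfrc was at 27.1 CPM in CD150+CD48- and 474 CPM in CD150- cells, a log2 fold of -4.08 (-4.91 without B9). The endosomal iron carrier Slc11a2 had -3.20 (-4.43 without B9). The zinc and iron carrier Slc39a14 had 4.99, with 84.7% of its CD150+CD48- reads in A11, and 2.63 without A11. Tfr2 had 0.51, which turned to -0.09 without B4 and was 1.22 without D8.

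Of 9 genes of iron storage, export and sensing, 5 (55.6%) were lower and 1 higher, with a median of -1.05 (-1.30 to -0.86). The iron exporter Slc40a1 had a log2 fold of -5.42, with all CD150+CD48- reads in B12 (-6.75 without it). The iron-regulatory protein Ireb2 had -1.48 and the ferritin light chain Ftl1 -0.14. Fbxl5, which marks Ireb2 for decay, was the higher gene at 2.21. A10, the cell with 80.2% of reads unaligned, held 62.8% of its reads, and without A10 it was 0.96, within 2-fold (2.92 without D9).

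Among 15 genes of iron-sulfur cluster assembly, on which Fech depends, 3 (20.0%) were lower and 1 higher, with a median of -0.51 (-0.62 to -0.44), and 2 to 5 were lower with 1 cell left out. Glrx5, a mitochondrial glutaredoxin whose loss impairs heme synthesis, had -3.73 (-5.30 without A11). Fdx1l had -1.38 (-2.26 without A8, -0.92 without D3). Fdxr, which feeds electrons to the assembly, had 1.84 (1.24 without B4, 2.75 without D12). Its partner Fdx1 had 0.92, within 2-fold, and 0.34 without A10 to 1.70 without D11.

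Of 9 genes of glycine and succinyl-CoA supply, 3 (33.3%) were lower and 1 higher, with a median of 0.13 (-0.78 to 0.29), so its sign was not stable. With 1 cell left out, 1 to 3 were lower. Dld and Ogdh, of the oxoglutarate dehydrogenase complex, had log2 folds of -1.50 (-2.29 without B3) and -1.14 (-0.94 without C9 to -1.93 without A8). Sucla2, of succinyl-CoA synthetase, had 0.98 (0.24 without A11), and Shmt1, which makes glycine, 1.08 (0.37 without B4, 0.46 without B9). The glycine importer Slc6a9 had no thinned read in any cell.

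For heme export, import and breakdown, 4 of 7 genes (57.1%) were lower and 0 higher, with a median of -1.43 (-2.41 to -0.85). Blvrb, a biliverdin reductase, was at 1.35 and 238 CPM, a log2 fold of -6.67 (-7.90 without A8, which held all CD150+CD48- reads). The heme-binding Hebp1 was at 0.337 and 33.8 CPM, or -4.70 (-3.63 without D8). The heme transporter Slc48a1 had 0.50. Abcg2, which carries heme and porphyrins out of the cell, had 0.53, which turned to -0.08 without B12. Hmox1, the inducible heme oxygenase, had no thinned read in any cell.

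Of 13 regulators of the pathway, 6 (46.2%) were lower and 0 higher, with a median of -0.96 (-1.33 to -0.77). Klf1 had a log2 fold of -3.35, with all CD150+CD48- reads in B4 (-8.48 without it), and Gata1 -3.34. Both are also among the erythroid markers. Foxo3 had 0.76. The heme-sensing repressor Bach1 had 0.72, with 84.4% of its CD150+CD48- reads in A11, and turned to -1.70 without A11.

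Of the globin genes 4 had enough reads and all 4 were lower by 2-fold or more. Their median was -4.70, or -5.14 with genes at 0 set to a floor of 3 reads over the group. Of the 4, 2 had no read in CD150+CD48- cells and could enter only through the CD150- cells. Hbb-bs had 0 and 104 CPM (log2 fold -6.72, or -5.85 without D9) and Hba-a2 0 and 11.7 CPM. Hba-a1 had 0.168 and 61.4 CPM, and Hbb-bt 3.20 and 46.0 CPM (-3.48, or -5.55 without B11 and -2.76 without C9). Reads that aligned to several near-identical copies were not counted to any gene, so the levels of these globin genes are uncertain. D9, poor in the other erythroid markers, had the highest globin share of the 20 cells, 0.0703% of gene reads, next to C9 with 0.0545%, and was also the only marker-poor cell with Alas2 reads.

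Of 12 cytochromes, other heme proteins and their partners 5 (41.7%) were lower and 2 higher, with a median of -0.07 (-0.55 to 0.12) whose sign was not stable. Cyc1 and Uqcrc1 of respiratory complex III had log2 folds of -3.01 (-4.02 without A8) and -1.59. Cyb5b, a cytochrome of the outer mitochondrial membrane, had 1.61 (2.24 without D3). Cox10, which acts on heme on its way into cytochrome oxidase, had 1.64 (0.74 without A3, which held 53.1% of its reads).

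**Figure D5:**
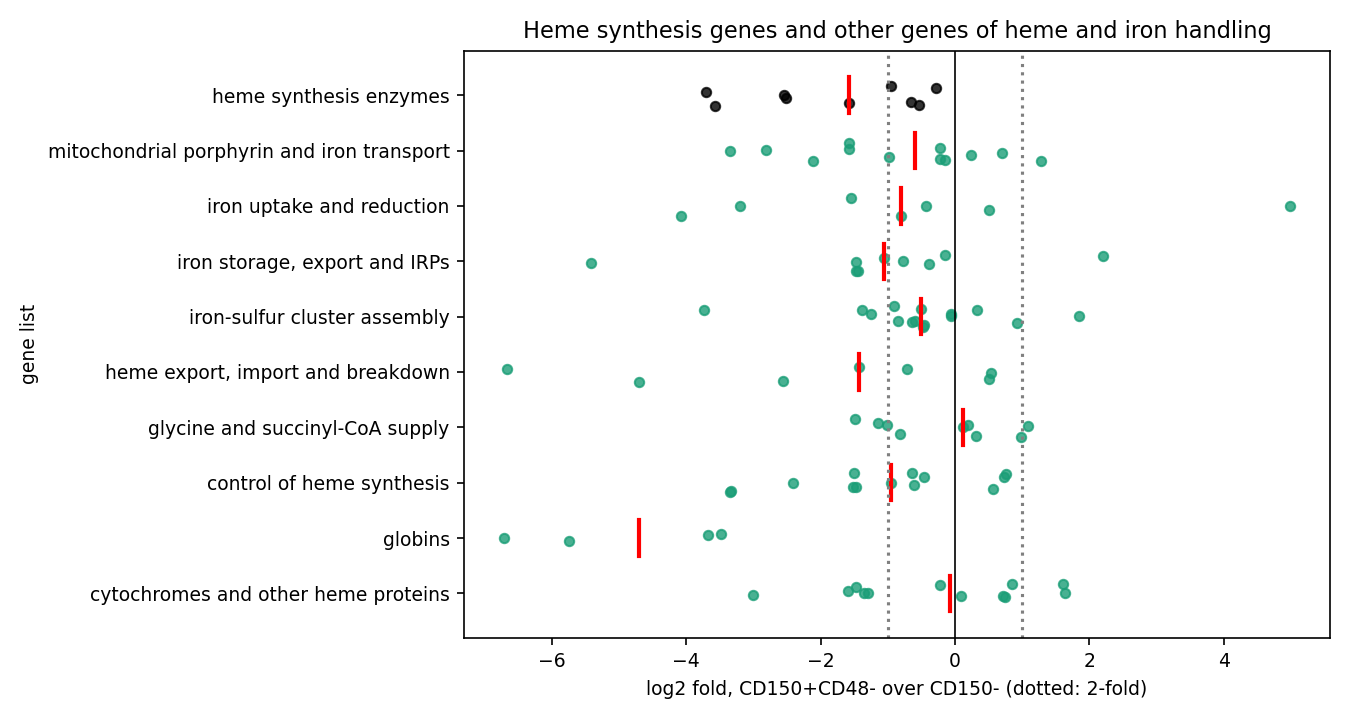
Each point is 1 gene with enough reads, at its log2 fold, CD150+CD48- relative to CD150- (horizontal axis), for the heme synthesis enzymes (black) and 9 other lists (green). Red bars mark list medians and dotted lines 2-fold. The median is -4.70 for the 4 globins, -1.58 for the heme synthesis enzymes, 0.13 for glycine and succinyl-CoA supply and -0.07 for the cytochromes.

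The genes whose order over the 20 cells was most like the mean log2 level of the 9 were Fth1, the ferritin heavy chain (Spearman rho 0.86), Selenbp2 (0.86), Ammecr1 (0.85), the water channel Aqp1 (0.84), Cldn13 (0.84), Btnl10, Ptdss2, Rps2, Il1rl1 and Spryd4 (0.83 each). They were taken from 8984 genes read in at least 7 cells. All 20 cells, marker-rich and marker-poor, enter each rho at equal depth, so the values describe these cells only. A rho over both kinds of cell can reflect the division between them, and likeness within either kind was not tested. Fth1 was at 2091 and 4340 CPM, and Cldn13, an erythroid claudin, at 0 and 116 CPM. Selenbp2 rested on 10 thinned reads in all.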

How the data were processed

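Whole-number read counts per gene were deposited by the authors for each cell and not normalized. HTSeq, R 3.0.2 and GRCm38 are named per the submitters' processing notes. The sources used here name no aligner or annotation release. HTSeq summary rows and ERCC rows stayed out of library sizes. Summary rows held most reads: 2.49% to 80.2% of a cell's reads were unaligned and 9.41% to 56.4% aligned to several places. Counts were thinned without replacement to 660007 per cell, summed per group and given as CPM. The genes compared had at least 10 thinned reads and a read in at least 3 cells. Python 3.11.15, pandas 2.3.3, scipy 1.17.1 and BLAST 2.17.0 were used, and thinning and folds were tested on simulated data. Lengths and coordinates are from GENCODE M21 (GRCm38), promoters from RefSeq (GRCm38.p6). The members, the lists and the erythroid markers, with their limit of 0.5% of gene reads, were chosen with earlier results of these data known. Named were all members, the 2 highest and 2 lowest of each list among genes with enough reads, and the 10 genes most like the members. Other list genes were named after their values were seen. Scaling, thinning, averaging, pseudocount, filter, length and each cell left out were varied. Every sample's replicate number only names it.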

Additional observations from a re-analysis of the deposited data

How the results depend on the processing

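With spike-in (ERCC) scaling, 9 of the 9 genes were lower by 2-fold or more, against 5 in the main analysis, and their median log2 fold was -3.13; the median of all genes then moved from -0.10 to -0.92, with 48.1% lower and 15.1% higher by 2-fold or more. Averaging on the log scale gave a median of -2.28 for the 9 genes, with 36.4% of all genes lower and 14.1% higher. A pseudocount of 10 CPM gave -0.89, letters A and C only -0.99, letters B and D only -2.73, and cells with at most 50% of reads unaligned -2.54. Leaving out 1 cell at a time, the median ran from -2.42 (without A3) to -1.04 (without D8), Fech from -0.78 to 0.21 and Ppox from -1.43 to 0.0087. Among other heme and iron genes (settings chosen after seeing the data), Tfr2 ran from -0.087 to 1.22, Abcg2 from -0.082 to 0.76 and Bach1 from -1.70 to 1.011. Median-of-ratios scaling gave Fech 0.029. Alas2 made 15.8% of the Alas1 and Alas2 signal in CD150- cells with the longest transcript as length. Across the settings tried, 4 to 9 of the genes were lower by 2-fold or more and none was higher. With a filter of 50 reads and 5 cells, 8 of the 9 were kept, and Alas2 was not. The cause of these shifts was not tested. No paired analysis was possible because the replicate numbers only name cells in order of accession and no test between the groups was made. At this depth, 1 read per cell, levels under 1.52 CPM in a cell were not detectable.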
